A study of Mus musculus with 3 samples.

Results

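The muscle nicotinic acetylcholine receptor is encoded by Chrna1, Chrnb1, Chrnd, Chrng and Chrne, and Agrn, Lrp4, Musk, Dok7 and Rapsn gather it at the synapse between motor nerve and muscle. These 10 genes were examined in the incisor enamel organ of mice. They were found by gene symbol among the 20937 genes of the raw counts table, in which all 10 were listed, and all 10 passed the filter on low counts. The genes were chosen from measured values, since the difference between Stim1 cKO and its controls was known when they were picked. Their values in that contrast are therefore given as a description, without a test. The mice were males aged 4 weeks, and RNA of the whole enamel organ went into 3 libraries, 1 for each genotype. Stim1 cKO carried AmelX-iCre and 2 floxed Stim1 alleles (Stim1 fl/fl Cre+). Stim1 HT carried AmelX-iCre and 1 floxed allele (Stim1 fl/wt Cre+), and Stim1 Ctrl carried 2 floxed alleles without Cre (Stim1 fl/fl Cre-). Stim1 encodes the calcium sensor of the endoplasmic reticulum that opens store-operated calcium channels, and AmelX-iCre is driven by the amelogenin promoter, which is active in ameloblasts. How many mice went into each library was not given in the sources used here.

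At the neuromuscular synapse, acetylcholine released by the motor nerve opens a channel made of alpha, beta and delta subunits with either gamma or epsilon. The gamma subunit belongs to the fetal receptor of immature and denervated muscle, and the epsilon subunit replaces it in the receptor of innervated adult muscle. Agrin from the nerve binds LRP4, which activates the kinase MuSK together with the adaptor DOK7, and rapsyn then anchors the receptors in clusters. These genes are textbook genes of skeletal muscle, while LRP4 and agrin are also made by many other tissues. LRP4 is needed for normal tooth development.

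The receptor genes are classic targets of myogenic transcription factors, which bind E-boxes (CANNTG) and favour the form CAGCTG, while the N-box (CCGGAA) is known for synaptic expression in muscle. RefSeq windows of GRCm38.p6 were available for 7 of the 10 genes, and the 250 bases before each annotated start were searched. Windows for Chrnd, Rapsn and Lrp4 were not used here. The windows below are those of the 4 genes that hold CAGCTG, with the first of 2 windows of Agrn, which was among the genes with little difference between libraries. Capitals mark CANNTG and, in Chrne, also CCGGAA. They are read on the strand of the gene, at chr2:73580339-73580588 for Chrna1 (minus strand), chr1:87205561-87205810 for Chrng (plus strand), chr4:58285712-58285961 for Musk (plus strand), chr11:70619195-70619444 for Chrne (minus strand) and chr4:156197489-156197738 for Agrn (minus strand).
Chrna1: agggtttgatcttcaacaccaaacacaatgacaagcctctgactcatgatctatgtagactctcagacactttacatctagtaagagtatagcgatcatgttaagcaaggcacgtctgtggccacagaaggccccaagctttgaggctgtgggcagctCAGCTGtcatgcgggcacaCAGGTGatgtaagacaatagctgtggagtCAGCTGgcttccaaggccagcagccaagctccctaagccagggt
Chrng: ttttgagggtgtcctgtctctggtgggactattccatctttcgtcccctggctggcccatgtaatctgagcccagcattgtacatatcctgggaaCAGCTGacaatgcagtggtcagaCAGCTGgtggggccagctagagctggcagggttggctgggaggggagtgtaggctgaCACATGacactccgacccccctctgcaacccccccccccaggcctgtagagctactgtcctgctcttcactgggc
Musk: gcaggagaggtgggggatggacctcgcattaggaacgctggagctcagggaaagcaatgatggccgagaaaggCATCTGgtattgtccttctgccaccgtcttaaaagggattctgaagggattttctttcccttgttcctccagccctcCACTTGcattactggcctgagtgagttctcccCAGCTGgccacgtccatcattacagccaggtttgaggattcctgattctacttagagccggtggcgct
Chrne: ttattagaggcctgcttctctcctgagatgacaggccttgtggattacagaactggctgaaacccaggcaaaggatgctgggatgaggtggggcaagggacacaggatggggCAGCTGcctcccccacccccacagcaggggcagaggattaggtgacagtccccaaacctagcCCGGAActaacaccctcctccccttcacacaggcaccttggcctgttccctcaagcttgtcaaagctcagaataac
Agrn: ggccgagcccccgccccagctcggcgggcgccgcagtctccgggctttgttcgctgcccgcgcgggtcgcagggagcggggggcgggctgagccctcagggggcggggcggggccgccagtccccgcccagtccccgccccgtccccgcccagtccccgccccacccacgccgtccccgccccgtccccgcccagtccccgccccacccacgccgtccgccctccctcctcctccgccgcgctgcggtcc

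Motifs were searched on both strands, and CANNTG and CAGCTG read the same on either strand. Chrna1 held 3 matches to CANNTG, 2 of them CAGCTG, which begin 92 and 44 bases before the start site. Chrng held 3 matches as well, with CAGCTG beginning 155 and 132 bases before its RefSeq start. At least 2 copies of CAGCTG were found in 1.26% of 32817 RefSeq windows of this length, and at least 1 copy in 13.0%. Chrna1 and Chrng also had the 2 lowest ratios of Stim1 cKO to the controls among the 10 genes, a description of 2 genes without a test. The genes were chosen with these ratios known and 3 of them had no window, so no relation between motif and ratio is read from this. Musk and Chrne held 1 copy of CAGCTG each, and Chrne was the only one of the 7 genes with CCGGAA, 76 bases before its start, apart from its E-box. CCGGAA or its reverse complement TTCCGG occurred in 12.0% of all windows. Chrnb1 held 3 matches to CANNTG and none to CAGCTG, and CANNTG alone was present in 66.2% of all windows. Dok7 had 2 windows, with 1 CANNTG in the first, 149 bases before its start, and none in the other. Neither Dok7 window held CAGCTG or CCGGAA. In the Agrn window shown, 83.6% of the bases are G or C, against a median of 52.4% over all windows, and none of these motifs was found. The other Agrn window, chr4:156186260-156186509, with 60.8% G or C, held 1 CANNTG, 92 bases before its start, and neither CAGCTG nor CCGGAA. The last 22 bases of the Chrne window and the last base or 2 of the Chrng and Musk windows lie in annotated exons of GENCODE. The whole Chrng window lies within the GENCODE span of Chrng, chr1:87204657-87212694. It therefore precedes the RefSeq start but not the start of the gene in GENCODE. The same holds for the other Agrn window. A match describes the letters of the window, not binding.

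Counts summed to 21496136, 20216507 and 28265960 in Stim1 cKO, Stim1 HT and Stim1 Ctrl. Levels between libraries are given as CPM, counts relative to library size scaled by edgeR's TMM method, and sets of 3 values follow that order throughout. Stim1 itself had 1763, 2536 and 4797 counts, or 72.8, 129 and 186 CPM, with the level higher where more alleles were intact. Stim1 cKO stood apart from both controls, with 33.0% of 18702 genes over 2-fold from Stim1 HT and 37.9% from Stim1 Ctrl, against 13.5% between Stim1 HT and Stim1 Ctrl. The labels give the cell type as ameloblasts, and Amelx, which encodes amelogenin, was at 2065, 20016 and 14088 CPM in Stim1 cKO, Stim1 HT and Stim1 Ctrl. Skeletal muscle RNA was present in all 3 libraries. Acta1, the actin of skeletal muscle fibres, was at 973, 7398 and 9791 CPM in the same order. Of 13 genes of adult muscle fibres, 9 lay over 2-fold below both controls in Stim1 cKO, and the summed level of the list was 5258, 20196 and 23906 CPM. Of 5 genes of embryonic and perinatal muscle, 5 were over 2-fold lower, with summed levels of 534, 6687 and 11667 CPM. In RNA from bulk tissue, fewer cells of a type and less RNA per cell cannot be told apart.

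Among the 10 genes, 8 were over 2-fold lower in Stim1 cKO than in each control, and none was higher. Of all 18702 genes kept, 8.23% were over 2-fold lower than both controls and 19.1% over 2-fold higher. Since the genes were chosen with this contrast in view, nothing is read from their number. The 8 genes comprised the 5 receptor subunits, Musk, Dok7 and Rapsn, and the 2 others were Agrn and Lrp4, the ligand and its receptor. At the level of any size of difference, all 10 lay below both controls, as did 42.1% of all genes. The median log2 ratio between Stim1 cKO and the averaged controls was -2.58 over the 10 genes and 0.01 over all genes. The 10 ratios ranged from -4.83 for Chrna1 to -0.35 for Agrn. Intervals beside the ratios below are exact 95% intervals of 2 counts and cover counting error only, since no genotype had a replicate.

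**Figure D1:**
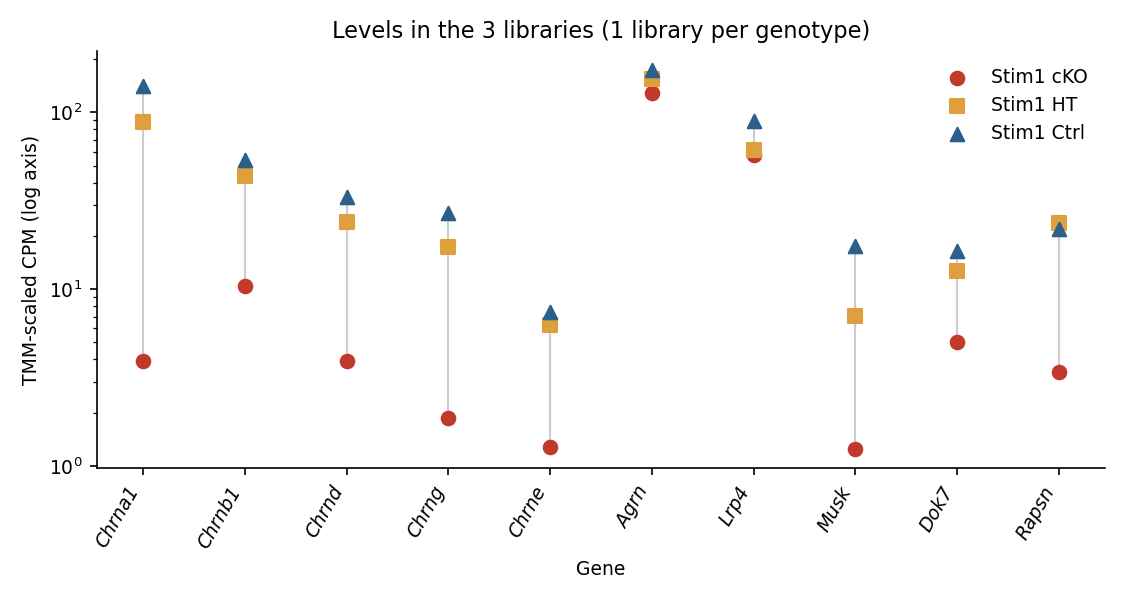
TMM-scaled CPM (vertical log axis) of the 10 genes (horizontal axis) in the 3 libraries, with 1 point per library and no error bars. The Stim1 cKO points of the 8 genes other than Agrn and Lrp4 lie well under both control points, at 1.24 to 10.4 CPM.

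Chrna1 encodes the alpha subunit, which carries the acetylcholine binding site and is present in 2 copies per receptor. It had 95, 1731 and 3640 counts in Stim1 cKO, Stim1 HT and Stim1 Ctrl, or 3.92, 87.9 and 141 CPM. Its level in Stim1 cKO was 22.4-fold lower than in Stim1 HT and 36.0-fold lower than in Stim1 Ctrl, the largest difference of the 10 genes in both comparisons. The log2 ratios were -4.48 (-4.80 to -4.19) and -5.17 (-5.48 to -4.88). Chrna1 was the most abundant of the 10 genes per exon length in Stim1 Ctrl, at 96.4 TPM (counts divided by exon length, with a fixed sum per library), and the seventh in Stim1 cKO, at 3.00 TPM.

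Chrnb1, the beta subunit, had 251, 863 and 1376 counts in Stim1 cKO, Stim1 HT and Stim1 Ctrl, or 10.4, 43.8 and 53.5 CPM. It showed the smallest difference of the subunits, 4.23-fold below Stim1 HT and 5.16-fold below Stim1 Ctrl. The delta subunit gene Chrnd had 95, 470 and 852 counts, or 3.92, 23.9 and 33.1 CPM, with log2 ratios of -2.60 (-2.94 to -2.28) and -3.08 (-3.40 to -2.77). Both subunits are common to the fetal and the adult receptor. Chrng, the fetal gamma subunit, had 45, 339 and 697 counts, or 1.86, 17.2 and 27.1 CPM. Its log2 ratios of -3.21 (-3.69 to -2.76) to Stim1 HT and -3.86 (-4.33 to -3.43) to Stim1 Ctrl were the second lowest of the subunits. Chrne, the adult epsilon subunit, had 31, 123 and 191 counts, or 1.28, 6.24 and 7.42 CPM. Its log2 ratios were -2.29 (-2.90 to -1.71) and -2.54 (-3.13 to -1.98). The intervals of Chrng and Chrne did not overlap for Stim1 Ctrl and overlapped for Stim1 HT.

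Chrnd and Chrng are neighbours on chromosome 1, 4586 bases apart and on the same strand, and Chrnb1 and Chrne lie 818939 bases apart on the same strand of chromosome 11. In GENCODE M21 on GRCm38, these 4 genes span chr1:87190607-87200070 (Chrnd), chr1:87204657-87212694 (Chrng), chr11:69784036-69795943 (Chrnb1) and chr11:70614883-70619216 (Chrne). On chromosome 2 are Chrna1 at chr2:73563215-73580338, Rapsn at chr2:91035620-91045729 and Lrp4 at chr2:91457511-91513779. Musk at chr4:58285960-58374303 and Agrn at chr4:156165290-156197488 are on chromosome 4, and Dok7 lies at chr5:35056766-35087839. The nearest protein-coding genes on either side that were not members were checked as well, a choice made after the values were seen. Of 18 such genes, 2 were over 2-fold lower in Stim1 cKO, Slc25a11 beside Chrne and Lpar1 beside Musk, 1 was over 2-fold higher, Prss56 beside Chrnd, and 15 were neither. Prss56 had 11, 3 and 3 counts. Eif4e2, the next gene 1219 bases from Chrng, had 1289, 1917 and 2439 counts. Zbtb4 lies 12 bases from Chrnb1 and had 3094, 1167 and 1701 counts, so Stim1 cKO held the highest count.

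Agrn encodes agrin, the proteoglycan that starts receptor clustering. It had 3113, 3033 and 4477 counts in Stim1 cKO, Stim1 HT and Stim1 Ctrl, or 129, 154 and 174 CPM. Per exon length it was the most abundant of the 10 genes in Stim1 cKO, at 46.4 TPM, and the third in Stim1 HT and Stim1 Ctrl, at 46.4 and 56.0 TPM. Its log2 ratios were -0.26 (-0.33 to -0.19) and -0.44 (-0.50 to -0.37). Lrp4, the agrin receptor, had 1388, 1200 and 2311 counts, or 57.3, 60.9 and 89.8 CPM. Its log2 ratio to Stim1 HT was -0.09 (-0.20 to 0.03), within counting error, and that to Stim1 Ctrl was -0.65 (-0.74 to -0.55). These differences were under 2-fold in each comparison.

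Musk, the muscle-specific kinase, had 30, 139 and 451 counts in Stim1 cKO, Stim1 HT and Stim1 Ctrl, or 1.24, 7.06 and 17.5 CPM. It was 5.69-fold below Stim1 HT and 14.1-fold below Stim1 Ctrl, and was the one gene of the 10 whose controls differed more than 2-fold. Dok7, the adaptor that activates MuSK from inside the fibre, had 121, 249 and 421 counts, or 5.0, 12.6 and 16.4 CPM. Its log2 ratios of -1.34 (-1.66 to -1.02) and -1.71 (-2.01 to -1.42) were the nearest to 0 of the 8 genes over 2-fold lower. Rapsn, the scaffold under the receptors, had 82, 465 and 562 counts, or 3.39, 23.6 and 21.8 CPM. It was 6.97-fold below Stim1 HT and 6.45-fold below Stim1 Ctrl. Rapsn shares 4 of its 1802 exon bases with Gm13778 on the opposite strand, which had 17, 2 and 14 counts, and no other member shares exon bases with another gene.

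**Figure D2:**
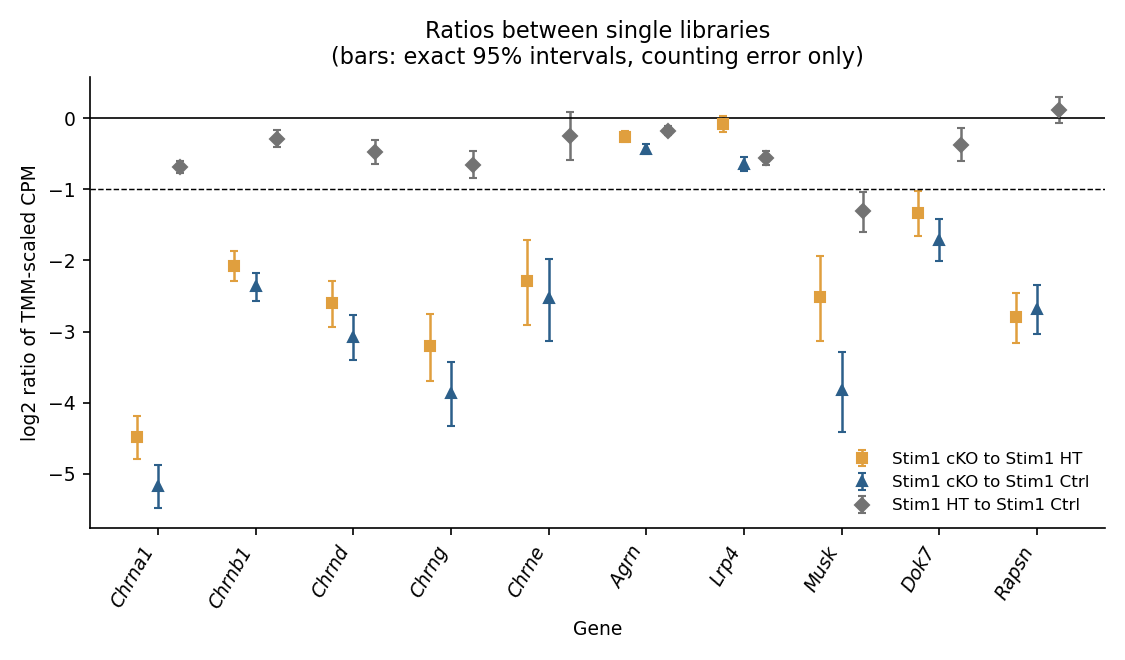
Log2 ratios of TMM-scaled CPM (vertical axis) of the 10 genes (horizontal axis) between pairs of single libraries; bars are exact 95% intervals that cover counting error only, and the dashed line marks a 2-fold lower level. The intervals of Stim1 cKO to either control lie wholly under the dashed line in 8 genes, and those of Agrn and Lrp4 lie above it.

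The controls differ in Cre and in 1 intact Stim1 allele. Stim1 HT lay below Stim1 Ctrl in 9 of the 10 genes, and Rapsn, at 23.6 and 21.8 CPM, was the exception. The counting interval of the ratio lay wholly below 0 in 8 genes, and it held 0 in Chrne and Rapsn. The shares of all genes that do the same were not computed, so nothing is read from either number. The order of Stim1 cKO below Stim1 HT below Stim1 Ctrl was seen in 9 of the 10 genes and in 25.4% of all genes. Lrp4 left this order under upper quartile scaling and library size scaling, which gave 8 genes. Only Musk differed more than 2-fold, with a log2 ratio of -1.31 (-1.60 to -1.04). Over all genes, 13.5% were more than 2-fold apart in these controls, in either direction. Chrna1 had a log2 ratio of -0.69 (-0.77 to -0.60) and Chrng one of -0.65 (-0.85 to -0.46), the lowest pair among the subunits. The median log2 ratio of Stim1 HT relative to Stim1 Ctrl was -0.42 over the 10 genes and 0.00 over all genes, with 1 library on each side and so no test.

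The makeup of the receptor transcripts was then compared within each library, where no scaling between libraries enters. Chrng made up 59.2% of the 76 counts of Chrng and Chrne in Stim1 cKO (95% Wilson interval 48.0% to 69.6%), 73.4% of 462 in Stim1 HT (69.2% to 77.2%) and 78.5% of 888 in Stim1 Ctrl (75.7% to 81.1%). The fetal subunit thus held the larger share of these counts in all 3 libraries. The intervals of neighbouring values overlapped, and those of Stim1 cKO and Stim1 Ctrl did not. Divided by the union exon lengths, 4163 bases for Chrng and 1690 for Chrne, the gamma share was 37.1%, 52.8% and 59.7%. Which of the pair was the more abundant in Stim1 cKO thus depended on the lengths used.

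Chrna1 and Chrnb1, both part of every muscle receptor, differed more in proportion. Chrna1 made up 27.5% of their 346 counts in Stim1 cKO (23.0% to 32.4%), 66.7% of 2594 in Stim1 HT (64.9% to 68.5%) and 72.6% of 5016 in Stim1 Ctrl (71.3% to 73.8%). None of these intervals overlapped. Per exon length, the Chrna1 level was 1.53 times that of Chrnb1 in Stim1 Ctrl, 1.16 times in Stim1 HT and 0.218 times in Stim1 cKO. Of the summed TPM of the 5 subunits, which was 24.8, 147 and 222 in Stim1 cKO, Stim1 HT and Stim1 Ctrl, Chrnb1 made up 55.4%, 33.0% and 28.4%. Chrna1 made up 12.1%, 38.2% and 43.4%. Chrnd held a share of 16.2%, 13.8% and 13.5%, which varied least of the subunits in proportion.

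**Figure D3:**
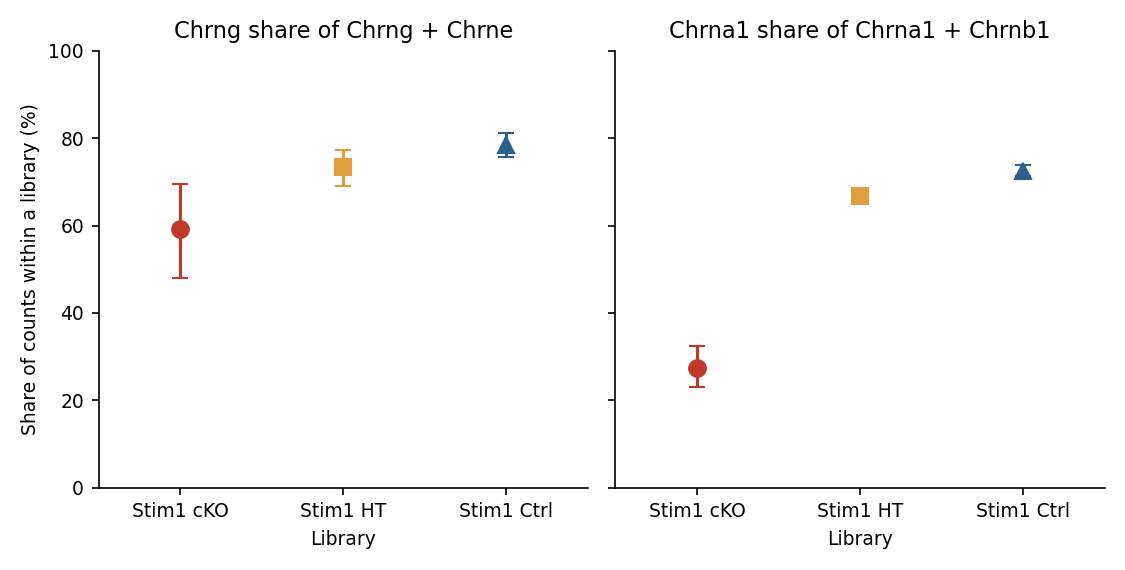
Share of counts within a library (vertical axis, percent) held by Chrng among Chrng and Chrne (left) and by Chrna1 among Chrna1 and Chrnb1 (right) in the 3 libraries (horizontal axis), with 95% Wilson intervals for counting error. Both shares are lowest in Stim1 cKO, at 59.2% and 27.5%.

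Since muscle fibre genes were also lower in Stim1 cKO, each gene was set against the summed TPM of the 13 adult muscle fibre genes of the same library, namely 8069 (Stim1 cKO), 33163 (Stim1 HT) and 39167 (Stim1 Ctrl). Together, the 5 subunits came to 3.07, 4.43 and 5.67 per 1000 of that level, in the same order of libraries. Set against Acta1 and Ckm alone, the values were 9.34, 9.49 and 10.3 per 1000, and against the embryonic and perinatal muscle genes they were 112, 62.0 and 55.9, in the opposite order. The log2 ratio between Stim1 cKO and the averaged controls was thus -0.71, -0.0798 or 0.93 with these 3 references, against ratios of -2.22 and lower for each subunit per library.

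Relative to the adult fibre level, Chrna1 was at 0.372, 1.69 and 2.46 per 1000, and it had the lowest ratios of Stim1 cKO to either control among the 10 genes. Chrng was at 0.185, 0.349 and 0.496 per 1000. Chrne, at 0.315, 0.312 and 0.335, and Chrnb1, at 1.70, 1.46 and 1.61, had nearly the same relation to this adult fibre sum in each library. Relative to the fibre level, 5 genes lay below both controls in Stim1 cKO (Chrna1, Chrnd, Chrng, Musk and Rapsn), 4 above both (Chrnb1, Agrn, Lrp4 and Dok7) and Chrne between them. Single genes are not given here against the other muscle references, with which the summed subunits changed. The split and the per-gene values thus hold for the adult fibre sum only. Agrn was at 5.75 per 1000 in Stim1 cKO against 1.40 and 1.43 in the controls, and Lrp4 at 2.27 against 0.490 and 0.652. Their own TPM were 46.4, 46.4 and 56.0 for Agrn and 18.3, 16.2 and 25.5 for Lrp4. Since the fibre level was lowest in Stim1 cKO, any gene with a steady TPM rises on this measure by its construction. The part of muscle content in these differences was not tested.

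**Figure D4:**
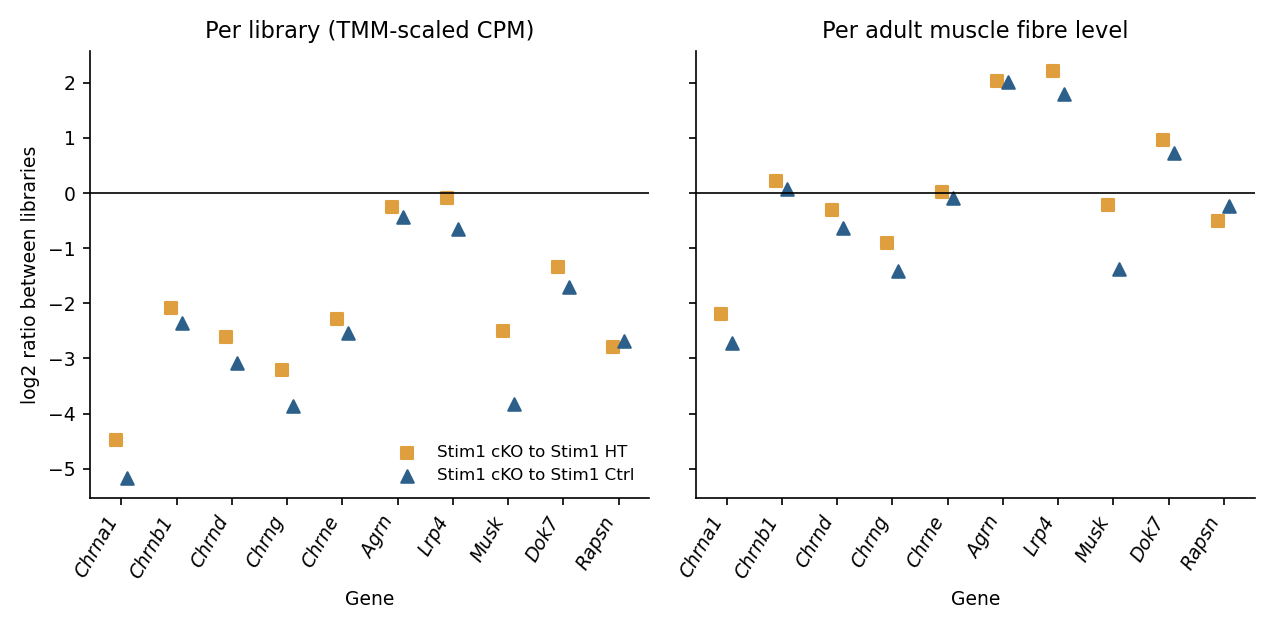
Log2 ratios of Stim1 cKO to each control (vertical axis) for the 10 genes (horizontal axis), from TMM-scaled CPM (left) and from TPM per summed TPM of 13 adult muscle fibre genes (right), with 1 library per genotype and no error bars. On the right, Chrnb1 and Chrne lie near 0, Chrna1 lies at -2.19 and -2.73, and Agrn and Lrp4 lie between 1.8 and 2.2. The lower fibre level of Stim1 cKO raises every ratio on the right.

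Other genes of the neuromuscular synapse and its control were taken from 6 lists with 54 genes, all of them kept. They were tested by edgeR's quasi-likelihood test of Stim1 cKO against both controls as 1 group, with a call at an adjusted p under 0.01 and a fold change over 2. That test takes its spread from the 2 controls, which differ in genotype. By edgeR, 0 of the 54 genes were called, while 22 that were lower and 4 that were higher had an unadjusted p under 0.05, as did 13.4% and 18.5% of all genes. By DESeq2, 14 were called lower and 2 higher. Over all genes, edgeR called 0% lower and 0.0749% higher, and DESeq2 called 4.71% lower and 5.92% higher. In terms of ratios, 15 of the 54 genes were over 2-fold lower than both controls and 3 were over 2-fold higher, with a median log2 ratio of -0.70.

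Of 8 genes listed for the basal lamina and acetylcholine breakdown of the synaptic cleft, 6 lay over 2-fold below both controls in Stim1 cKO. The list median was -1.38, and 8.23% of all genes were over 2-fold lower than both controls. Which cells or tissue of the enamel organ samples these transcripts came from was not tested. Nid2, the basal lamina protein nidogen 2, was at 29.2, 94.6 and 149 CPM in Stim1 cKO, Stim1 HT and Stim1 Ctrl, with an adjusted p of 0.041 in edgeR. Colq, the collagen tail that holds acetylcholinesterase in the cleft, was at 4.21, 14.9 and 16.7 CPM, with an adjusted p of 0.0499 in edgeR. By DESeq2, 5 genes of this list were called lower.

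Among 12 partners of MuSK signalling, 1 was over 2-fold lower and none higher, with a median of -0.72. Crkl, an adaptor recruited by DOK7, was at 17.1, 42.1 and 62.3 CPM, with an adjusted p of 0.0504 in edgeR. Abl1, a tyrosine kinase of the same pathway, was at 63.6, 114 and 154 CPM, with an adjusted p of 0.0962 in edgeR. DESeq2 called Crkl lower and none of the other 11 genes of the list.

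Among 7 genes of neuregulin signalling and synaptic transcription, 1 was over 2-fold lower and 1 over 2-fold higher, with a median of -0.19. Etv5, a transcription factor needed for synaptic gene expression in muscle, was at 19.04, 43.2 and 54.4 CPM, with an adjusted p of 0.0482 in edgeR. Erbb4, a neuregulin receptor, was at 8.88, 4.01 and 4.12 CPM, with an adjusted p of 0.164 in edgeR. Of the 9 genes of the utrophin and dystrophin scaffold, 2 were over 2-fold lower and none higher, with a median of -0.69. Dag1, which encodes dystroglycan, was at 124, 345 and 496 CPM, with an adjusted p of 0.0554 in edgeR. Utrn, which encodes the synaptic protein utrophin, was at 128, 101 and 163 CPM, and was lowest in Stim1 HT.

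Among 10 myogenic regulators, 4 were over 2-fold lower and none higher, with a list median of -0.38. The 4 were the myogenic bHLH factors, which bind E-boxes, namely Myf5, Myog, Myod1 and Myf6. Myf5 had 36, 197 and 301 counts in Stim1 cKO, Stim1 HT and Stim1 Ctrl and a log2 ratio of -2.86, and its adjusted p was 0.0371 in edgeR. Myog, which encodes myogenin, had 218, 1260 and 1554 counts and a log2 ratio of -2.79, and its adjusted p was 0.0154 in edgeR. DESeq2 called these 4 genes lower, and the other 6, among them Mef2a, Mef2c and Mef2d, had log2 ratios from -0.49 to 0.70.

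The receptor subunit genes Chrna1, Chrng and Chrnd, Myog, Runx1 and Ncam1 are known to rise together in denervated muscle. In a list of 8 denervation-responsive genes that includes Runx1 and Ncam1, 1 was over 2-fold lower and 2 were over 2-fold higher in Stim1 cKO, with a median of 0.06. The 2 higher genes were Runx1 and Ncam1 themselves. Ncam1, the neural cell adhesion molecule, which nerve and other tissues also express, was at 667, 126 and 168 CPM, with an adjusted p of 0.0271 in edgeR. Runx1 was at 101, 43.1 and 46.7 CPM, with an adjusted p of 0.0463 in edgeR. Nes, which encodes nestin, was at 106, 299 and 337 CPM, with an adjusted p of 0.0461 in edgeR. DESeq2 called Ncam1 and Runx1 higher and Nes lower.

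**Figure D5:**
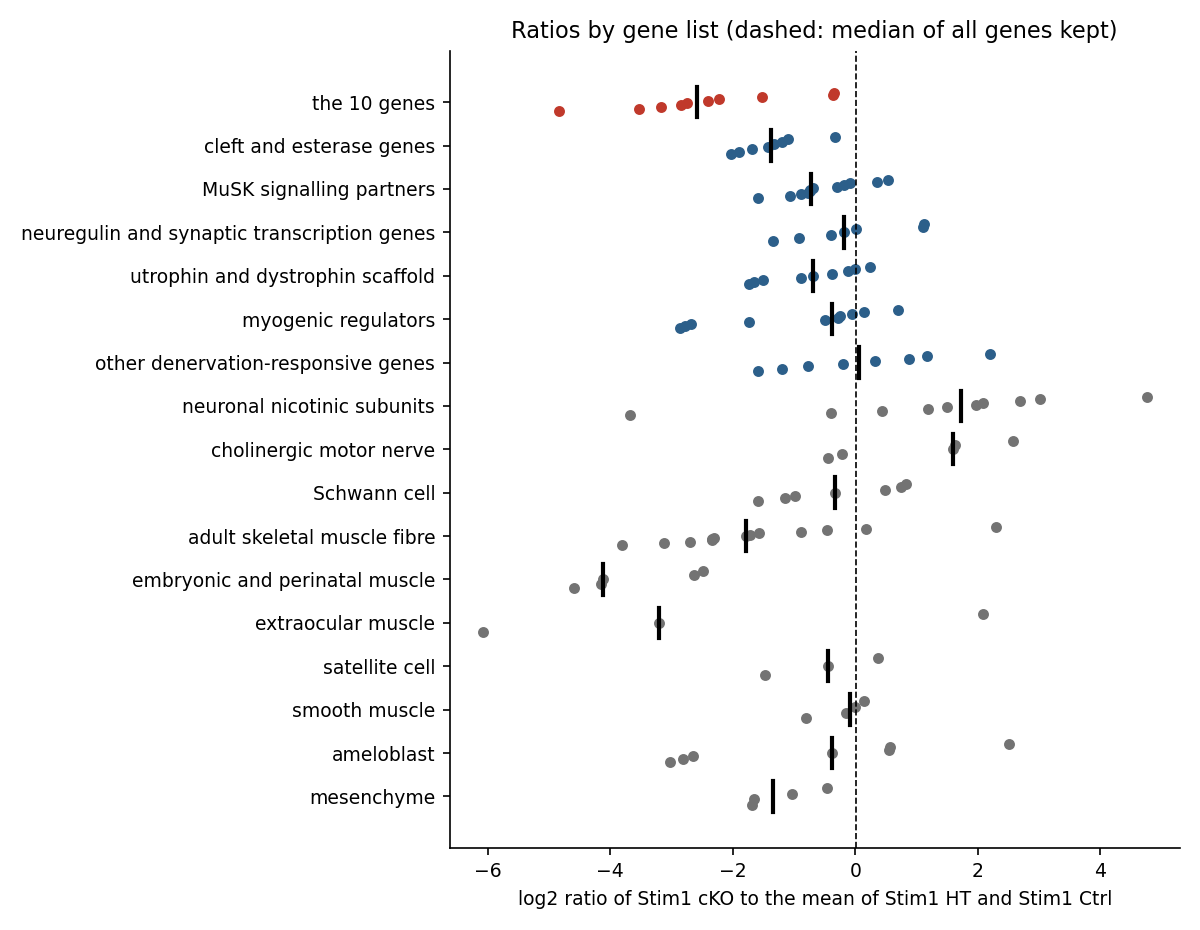
Log2 ratio between Stim1 cKO and the averaged controls (horizontal axis) for the 10 genes (red), the genes of 6 synapse and muscle control lists (blue) and those of 10 marker lists (grey), with a bar at each list's median. The medians run from -4.11 in the embryonic and perinatal muscle list to 1.73 in the neuronal nicotinic subunits, and the 10 genes have a median of -2.58.

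The neuronal nicotinic subunits form channels of nerve and sensory cells rather than of muscle. Of 11 listed, 10 were kept. In Stim1 cKO, 4 of these were over 2-fold above both controls and 1 over 2-fold below, with a median log2 ratio of 1.73. The controls differed from each other too, with 6 of the 10 genes over 2-fold apart, against 13.5% of all genes. On the log2 scale, Stim1 HT stood above Stim1 Ctrl by a median of 1.40. Chrna3, Chrna6 and Chrna10 had only 8, 5 and 1 counts in Stim1 Ctrl. The median of 1.73 is thus not read as a difference of Stim1 cKO alone. Chrnb2 had 9.05, 3.55 and 1.52 CPM in Stim1 cKO, Stim1 HT and Stim1 Ctrl, and Chrnb3 had 1.69, 0.0508 and 0.0777 CPM, the latter from 1 and 2 counts in the controls. Chrna9 was the gene over 2-fold below, at 0.372, 4.16 and 5.48 CPM. Chrna7 was also below both controls, at 1.32, 1.47 and 2.06 CPM. Summed over the list, the level was 29.2, 18.2 and 13.0 CPM, an order opposite to that of the muscle subunits.

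Of the 7 genes of the cholinergic motor nerve, 5 were listed and 2 of these were over 2-fold higher in Stim1 cKO, with summed levels of 82.2, 56.0 and 54.3 CPM. Isl1, at 39.2, 10.2 and 4.31 CPM, decided that order, since the other 4 summed to 43.0, 45.9 and 50.01 CPM. Of these, Prph was at 27.0, 28.7 and 34.7 CPM and Nefh at 10.5, 14.3 and 14.1 CPM, both lowest in Stim1 cKO. Slc5a7, the other gene over 2-fold higher, was at 4.05, 1.78 and 1.01 CPM. Slc18a3 also lay above both controls, at 1.45, 1.12 and 0.194 CPM. Chat and Mnx1 were not listed, and the table holds no gene without a count in every library. The 7 Schwann cell genes summed to 962, 1755 and 2412 CPM, with 1 over 2-fold lower and none higher, and Sox10 was at 28.3, 28.5 and 45.0 CPM. Of 4 smooth muscle genes, none was over 2-fold from both controls, and their sum was 405, 436 and 730 CPM. Of 3 satellite cell genes, Calcr was over 2-fold lower and Pax7 was at 11.5, 8.12 and 9.87 CPM, in a list that summed to 31.0, 30.5 and 44.5 CPM. Among the 4 mesenchyme genes, 2 were over 2-fold lower, with sums of 34321, 47775 and 74659 CPM. Among the 7 ameloblast genes, 3 were over 2-fold lower and 1 over 2-fold higher, with sums of 4457, 31544 and 23273 CPM. The part of these cell types in the levels of the 10 genes was not tested.

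Extraocular muscle keeps the fetal gamma subunit in the adult, and of 3 myosin genes listed for it, 2 were over 2-fold lower in Stim1 cKO and Myh15, at 1.12, 0.254 and 0.272 CPM, was over 2-fold higher. Myh13 had 7, 321 and 602 counts in Stim1 cKO, Stim1 HT and Stim1 Ctrl, or 0.289, 16.3 and 23.4 CPM. Of the embryonic and perinatal genes, the perinatal myosin Myh8 was at 435, 5567 and 10159 CPM and the embryonic myosin Myh3 at 22.2, 387 and 742 CPM. The summed TPM of the embryonic and perinatal list came to 0.0273, 0.0714 and 0.101 of that of the adult list, with Stim1 cKO the lowest and Stim1 Ctrl the highest. These shares ran in the same order as the gamma shares. The adult fast myosin Myh4 went the other way, at 473, 318 and 29.1 CPM, while Myh1 was at 1000, 1002 and 1882 CPM. Myh2 of the same adult list was at 92.5, 318 and 682 CPM, over 2-fold below both controls in Stim1 cKO.

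The 5 genes whose profile over the 3 libraries was most like that of Chrna1 were sought among the 14974 genes that averaged 50 counts or more, by the Euclidean distance of log2 CPM centred on each gene. With 3 libraries, such likeness is a description of 3 points. The nearest were Gm27483, at a distance of 0.0664, then Fndc3c1 at 0.173, Myh7, the slow and cardiac myosin, at 0.188, Prr32 at 0.228 and Myh3 at 0.262. Gm27483 is annotated as an RNA of 71 bases inside H19 on the opposite strand, so its 9, 170 and 335 counts may be shared with it. H19, an imprinted long noncoding RNA of fetal tissues and muscle, had 35543, 200222 and 392384 counts and was named after its values were seen. Myh7 had 111, 2432 and 4649 counts, and its span overlaps that of Mhrt and other genes. None of the other 9 members was among the 5.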

How the data were processed

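RNA from whole incisor enamel organs was sequenced on a HiSeq instrument, with 1 library per genotype. The paper names a directional NEBNext kit and the labels a SMARTER kit, so the strand of the reads could not be settled. The authors aligned trimmed paired-end reads with STAR, and the deposited values are raw read counts for each gene symbol, not normalized. The genome build, annotation, counting tool and its strand setting were not given in the sources used here. The smallest count in any library is 1.

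Here, counts were scaled by TMM factors (1.13, 0.975 and 0.911 for Stim1 cKO, Stim1 HT and Stim1 Ctrl) in edgeR 4.0.16 under R 4.3.3, and 18702 of 20937 genes were kept by filterByExpr. Ratios between single libraries were taken on CPM without a pseudocount. A ratio of 2 counts has an exact 95% interval from the binomial distribution, and a share of counts has a Wilson interval. Both cover counting error only, as does a floor of 3 counts (0.124, 0.152 and 0.117 CPM). The spread between mice of a genotype is unknown. TPM were computed from counts divided by the union exon length of GENCODE M21 (GRCm38), in which 20676 genes matched a unique symbol, and gene positions come from the same annotation. Sequences come from RefSeq (GRCm38.p6).

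The edgeR quasi-likelihood test with Benjamini-Hochberg adjustment was fitted across all genes kept, with Stim1 HT and Stim1 Ctrl as 1 group (residual df 1, prior df 4.15, common dispersion 0.106), and DESeq2 1.42.0 was the alternative. The fits were tested on simulated counts. The alternatives were other scalings, 1 CPM added before ratios, leaving out each control, other thresholds, no filter, counts per length and other muscle references. The members, gene lists and tests were chosen with earlier results of these data known. The genes named are the 10 members, the 2 genes with the largest absolute log2 ratio in each of 6 lists plus any gene called, the 5 nearest to Chrna1, and any gene of the marker lists. Results for some genes under this rule are not reported here. Utrn, Runx1, Myod1, Myf6, Mef2a, Mef2c, Mef2d, the neighbouring genes, Gm13778 and H19 were named outside this rule after their values were seen. Python 3.11.15 with pandas 2.3.3 and scipy 1.17.1 was used.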

Additional observations from a re-analysis of the deposited data

How the results depend on the processing

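No paired analysis was possible because each genotype has 1 library. The number of members over 2-fold lower than both controls was 8 under each scaling, with 1 CPM added, without either control and at a threshold of 1.5-fold, and 7 at 4-fold, where Dok7 was lost. The median log2 ratio of the members lay between -2.61 and -2.28, and each member's ratio kept its sign in all 60 recalculations. Upper quartile scaling moved the median of all genes by 0.126 and library size scaling by 0.258. In all, 17 of the 60 ratios moved by more than counting error, and Agrn and Lrp4 came nearest to 0, at -0.09 without Stim1 Ctrl for Lrp4 and with library size scaling for Agrn.

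The values that rest on length or reference moved most. Divided by exon length, the gamma share was 37.1%, 52.8% and 59.7% in Stim1 cKO, Stim1 HT and Stim1 Ctrl, by the construction of the measure. The subunit level per 1000 of the adult fibre level was 4.06, 8.86 and 10.98 without division by exon length, 9.34, 9.49 and 10.3 against Acta1 and Ckm, and 112, 62.0 and 55.9 against the embryonic and perinatal list. As log2 ratios of Stim1 cKO to the mean of the controls, a summary added after the data were seen, these were -0.71 as reported, then -1.28, -0.0798 and 0.93, the last reversed. The cause was not tested.

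Of the 54 genes of the synapse and muscle control lists, edgeR called 0 as reported and with either other scaling, 3 without a filter on low counts (Ncam1, Myog and Myod1) and 11 at an adjusted p under 0.05, and DESeq2 called 16. Leaving out a control leaves 1 library on each side without residual degrees of freedom, so no calls could be made. Depth limits Chrne, Musk and Chrng most, with 31, 30 and 45 counts in Stim1 cKO.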
